A study of Homo sapiens with 12 samples.

Results

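The transcripts described here are the products of 10 small nucleolar RNA (snoRNA) host genes, GAS5, ZFAS1, SNHG1, SNHG5, SNHG6, SNHG7, SNHG8, SNHG12, SNHG15 and SNHG16. They were chosen by gene symbol, irrespective of the annotated RNA type, among the 58174 genes listed in each deposited table, and all 10 were found there. The study sequenced poly-A-enriched RNA from the hepatoblastoma line Hep-G2 and the neuroblastoma line BE(2)-C to follow how RNA abundance depends on the RNA-binding protein IGF2BP1. Cells received either a control siRNA (siC) or a pool of siRNAs directed against IGF2BP1 (siI1), at a higher concentration in BE(2)-C, and were harvested 72 h later. Each siRNA and cell line had 3 libraries, 12 in all, which the methods describe as biological replicates. Between 12852988 and 15721210 reads per library were assigned to genes.

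A snoRNA host gene carries snoRNAs in its introns. After splicing, the snoRNAs are trimmed from the excised introns and enter nucleolar particles, where C/D box snoRNAs guide ribose methylation and H/ACA box snoRNAs guide pseudouridylation of ribosomal RNA. The spliced exons of the host genes considered here encode no long protein and leave the nucleus as polyadenylated RNAs, many of which begin with a terminal oligopyrimidine (TOP) sequence, like the mRNAs of ribosomal proteins, and are degraded by nonsense-mediated decay when ribosomes read their short open reading frames.

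The lines carried the markers of their labels. The 10 hepatic markers examined (among them ALB, AFP and HNF4A) had between 9.56 and 6209 FPKM (fragments per kilobase of gene length, scaled to library size) in the Hep-G2 libraries and at most 0.305 in BE(2)-C. The 10 sympathoadrenal markers (among them DBH, HAND2 and MYCN) had between 25.96 and 1955 FPKM in BE(2)-C and at most 0.241 in Hep-G2. Of 8 markers of other cells, the epithelial EPCAM and KRT19 reached 111 and 511 FPKM in Hep-G2, whereas the leukocyte markers PTPRC and CD68 and the endothelial markers PECAM1 and VWF stayed at or below 0.124 in either line. The fibroblast markers COL1A1 (at most 0.748 in Hep-G2, 1.403 in BE(2)-C) and COL1A2 (0.474 and 0.300) were low. In BE(2)-C, EPCAM and KRT19 reached 0.400 and 1.85. With the knockdown in Hep-G2, EPCAM was higher (0.72, adjusted p = 0.000418) and KRT19 lower (-0.48, adjusted p = 0.0268). The summed hepatic markers, of which ALB was the most abundant, moved with the knockdown in Hep-G2, from 7803 to 7874 FPKM per siC library and from 12916 to 14701 per siI1 library, with 6 of the 10 higher (21.9% of all tested genes were) and 2 lower (23% of all). The summed sympathoadrenal markers, led by MYCN, had 3539.9 to 3785 FPKM per siC library and 3748 to 3857 per siI1 library of BE(2)-C, with 2 of the 10 higher (13.3% of all tested genes were) and 5 lower (14.8% of all). The part of these shifts in the results on the host transcripts was not tested. In bulk RNA, a change in the number of cells of a kind and a change in RNA per cell cannot be told apart.

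The library labelled siI1 replicate 1 of Hep-G2 stood apart from the other siI1 libraries of that line. Over 11247 genes, its median absolute log2 difference was 0.19 from replicate 2 and 0.20 from replicate 3, against 0.08 between replicates 2 and 3. It held the lowest siI1 value of 8 of the 9 host transcripts tested in Hep-G2, and of 40.7% of all tested genes. For the host transcripts and for the ribosomal protein and other noncoding hosts, calls and counts that change without it are given both ways. Other genes and lists were not examined without it. Library scaling also mattered. When every library was scaled to the same sum of FPKM instead of the authors' scaling, the median log2 fold change of all tested genes moved from 0.01 to -0.15 in Hep-G2, and 5835 genes were lower and 3211 higher in place of 4463 and 4250. With median centring the Hep-G2 median moved the other way, to 0.09, and 3693 genes were lower and 5015 higher. The BE(2)-C median moved only from 0.02 to 0.03 with equal sums and to 0.05 with median centring.

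The knockdown was visible in every library. IGF2BP1 had 48.5, 46.6 and 50.8 FPKM in the siC libraries of Hep-G2 and 12.6, 10.7 and 10.7 in the siI1 libraries. The BE(2)-C values were 21.3, 20.6 and 21.6 with siC and 4.85, 4.75 and 4.87 with siI1. Every siI1 library thus lay far below every siC library of its line, with log2 fold changes of -2.10 ± 0.0793 (SE, adjusted p = 7.83e-06, limma) in Hep-G2 and -2.11 ± 0.0477 (SE, adjusted p = 1.48e-05, limma) in BE(2)-C. Of the paralogs, IGF2BP2 was not called in Hep-G2 (log2 fold change -0.14, adjusted p = 0.106) while BE(2)-C libraries held no more than 3 of its reads each. IGF2BP3 was not called in Hep-G2 (-0.11, adjusted p = 0.383) and rose in BE(2)-C (0.34, adjusted p = 0.00418), and these effects differed by 0.45 (adjusted p = 0.00676).

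Since the host transcripts are known for TOP starts, the sequence around the annotated start was read for the members found in the RefSeq promoter table (assembly GRCh38.p14), 8 of 10, without SNHG6 and SNHG15. Each run below is written from 45 bases before the start to 25 bases from the start onwards, on the strand of the gene. Capitals mark TATAA within 50 bases before the start, and a pyrimidine run, taken from the C nearest to the start (within 10 bases on either side) that is followed by at least 4 further C or T. Both were searched on the gene's strand only.
GAS5: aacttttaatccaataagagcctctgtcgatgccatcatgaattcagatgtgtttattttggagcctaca
ZFAS1: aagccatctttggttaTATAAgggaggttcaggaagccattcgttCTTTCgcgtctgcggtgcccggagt
SNHG1: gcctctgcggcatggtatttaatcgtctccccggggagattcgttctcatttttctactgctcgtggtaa
SNHG5: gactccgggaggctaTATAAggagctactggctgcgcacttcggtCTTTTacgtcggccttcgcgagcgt
SNHG7: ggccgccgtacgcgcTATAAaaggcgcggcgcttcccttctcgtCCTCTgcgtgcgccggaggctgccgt
SNHG8: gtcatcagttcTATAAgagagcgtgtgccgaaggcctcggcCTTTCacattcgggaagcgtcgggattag
SNHG12: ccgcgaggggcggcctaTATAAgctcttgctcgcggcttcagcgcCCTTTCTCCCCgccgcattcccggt
SNHG16: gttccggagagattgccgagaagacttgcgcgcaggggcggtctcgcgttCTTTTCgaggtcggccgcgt
The GAS5 window is chr1:173869021-173869090 (minus strand), ZFAS1 is chr20:49278597-49278666 (plus), SNHG1 is chr11:62855861-62855930 (minus), SNHG5 is chr6:85678709-85678778 (minus), SNHG7 is chr9:136728160-136728229 (minus), SNHG8 is chr4:118278717-118278786 (plus), SNHG12 is chr1:28581849-28581918 (minus) and SNHG16 is chr17:76557719-76557788 (plus). For GAS5 the RefSeq start lies outside the gene as annotated in GENCODE 44, which spans positions 173858559 to 173868882.

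TATAA occurred in 5 of these 8 starts, in ZFAS1, SNHG5, SNHG7, SNHG8 and SNHG12, between 28 and 34 bases before the start, against 4.74% of all 35116 promoters of the table. Only 1 of 23 ribosomal protein genes that host snoRNAs (4.35%) and 1 of 18 other noncoding host genes (5.56%) had it. The pyrimidine run was found in 6 of 8 starts (75%), against 33.5% of all promoters, 78.3% of the ribosomal protein hosts and 61.1% of the other noncoding hosts. The annotated start itself was such a C in ZFAS1, SNHG5 and SNHG12, which is 37.5% of the 8, against 4.07% of all promoters, 56.5% of the ribosomal protein hosts and 22.2% of the other noncoding hosts. For GAS5 and SNHG1 neither was found within the distances searched; pyrimidine runs farther from the start were not counted.

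The cargo of the host genes differs. RefSeq places 37 snoRNA genes within the bounds of the 10 host genes, counted without regard to strand. Of these, 11 lie in GAS5, 9 in SNHG1, 4 in SNHG12 and 1 to 3 in each of the others. GAS5 and SNHG1 hold mainly and ZFAS1, SNHG5, SNHG6 and SNHG16 only C/D box snoRNAs, SNHG7, SNHG8 and SNHG15 hold H/ACA box snoRNAs, and SNHG12 holds 1 C/D and 3 H/ACA box snoRNAs. As an example of each class, SNORD12B lies within ZFAS1 (chr20:49280319-49280409, plus strand, 91 nt) and SNORA24 within SNHG8 (chr4:118279190-118279320, plus strand, 131 nt), both as annotated in GENCODE 44 on GRCh38. Capitals mark the C and D boxes of SNORD12B and the H and ACA boxes of SNORA24.
SNORD12B: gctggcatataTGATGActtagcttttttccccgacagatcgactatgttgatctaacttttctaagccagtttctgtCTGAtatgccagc
SNORA24: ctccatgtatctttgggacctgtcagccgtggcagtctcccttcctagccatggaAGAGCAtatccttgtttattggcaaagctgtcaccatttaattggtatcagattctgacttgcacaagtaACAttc
Those snoRNAs that were looked up, which carry no poly-A tail, had almost no reads. GENCODE 44 annotates 26 snoRNA genes inside the host genes on their strand but 0 inside GAS5. The reads of the GAS5 snoRNAs were therefore not examined. Of the 26, 22 were listed at 0 reads in all 12 libraries. The remaining 4 had few reads. SNORD12B had 1 to 10 reads per library in Hep-G2 and 2 to 4 in BE(2)-C, SNORD12C had at most 3, SNORD99 in SNHG12 had 2 to 8, and SNORD1B in SNHG16 had 0 to 8.

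In control cells the host transcripts covered a wide range, and their order was similar at the top in both lines. The tables were normalized separately, so levels were ordered only within a line and not tested across lines. In the siC libraries of Hep-G2, mean FPKM was highest for SNHG5 (73.3 ± 2.88, SD, n = 3), followed by SNHG8 (47.0 ± 2.48), SNHG6 (37.7 ± 3.83), SNHG16 (29.9 ± 2.24), GAS5 (22.0 ± 1.98), ZFAS1 (18.2 ± 1.24), SNHG1 (14.4 ± 0.494), SNHG7 (9.80 ± 0.747), SNHG12 (3.45 ± 0.184) and SNHG15 (0.0392 ± 0.0403). No neighbours in this order had overlapping libraries. The order with siC in BE(2)-C was SNHG5 (148 ± 16.7, SD, n = 3), SNHG8 (102 ± 6.21), SNHG6 (79.1 ± 8.52), GAS5 (67.4 ± 1.58), SNHG7 (55.4 ± 0.730), SNHG16 (38.6 ± 1.20), ZFAS1 (20.5 ± 2.16), SNHG1 (17.2 ± 1.07), SNHG15 (16.1 ± 0.277) and SNHG12 (3.42 ± 0.142). Here only the neighbours ZFAS1 and SNHG1 overlapped. SNHG5 lay above 99.1% of all listed genes in Hep-G2 and above 99.5% in BE(2)-C.

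**Figure D1:**
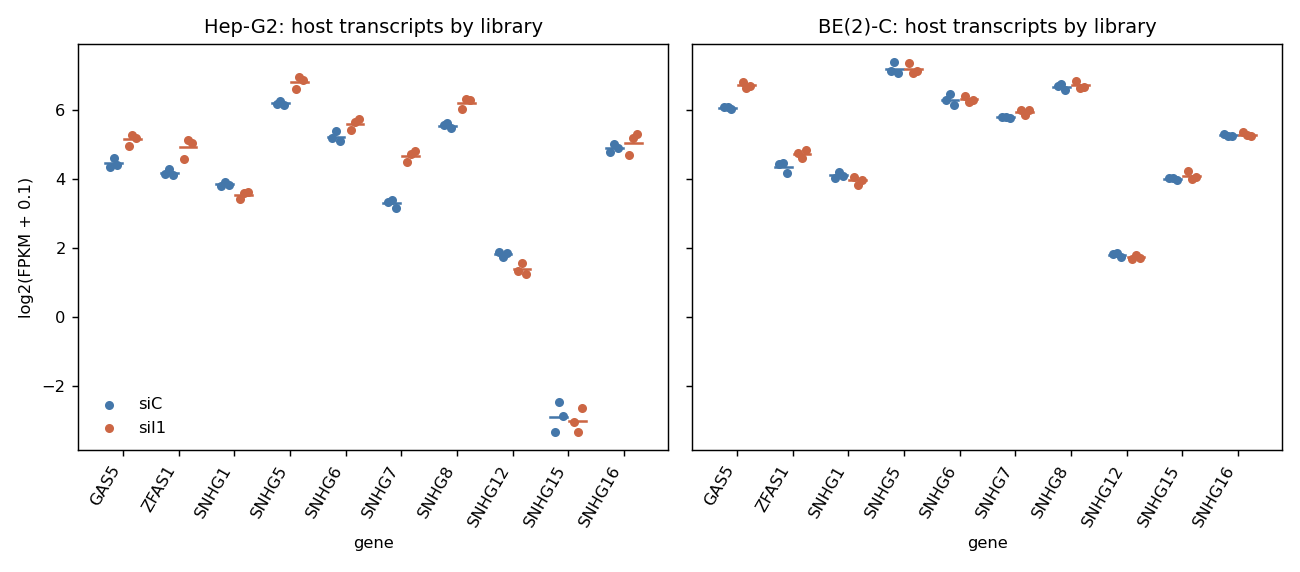
Level of each host transcript in every library, as log2(FPKM + 0.1), for siC and siI1 libraries of Hep-G2 (left) and BE(2)-C (right), with the group mean as a bar. In Hep-G2 the siI1 libraries of SNHG7 (22.6 to 28.0 FPKM) lay above all siC libraries (8.96 to 10.4 FPKM), and SNHG15 stayed at or below 0.0805 FPKM.

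Upon IGF2BP1 knockdown, most host transcripts increased in Hep-G2. Of the 9 tested there, 6 were higher with siI1 (GAS5, ZFAS1, SNHG5, SNHG6, SNHG7 and SNHG8), where 21.9% of all tested genes were higher, and 2 were lower (SNHG1 and SNHG12), where 23% of all tested genes were lower. In all, 8 of 9 were called at an adjusted p below 0.05, against 44.8% of 19436 tested genes, and SNHG16 was not called. The median log2 fold change of the 9 was 0.63, and that of all tested genes was 0.01. Fewer changes were found in BE(2)-C. Of 10 tested, GAS5, ZFAS1 and SNHG7 were higher, where 13.3% of 18656 tested genes were higher, and none was lower, where 14.8% of all were lower and 28.2% were called in either direction. No host transcript was lower in BE(2)-C at an unadjusted limma p below 0.05 or with limma's voom on the recovered reads either. The median log2 fold change was 0.04 for the 10 and 0.02 for all tested genes. GAS5, ZFAS1 and SNHG7 were thus the transcripts higher in both lines.

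These counts depended in part on individual libraries and on the fit. In Hep-G2 the lower count was 1 without siC replicate 1, siC replicate 3 or siI1 replicate 3, since SNHG12 was then not called. Without siI1 replicate 1, 7 host transcripts were higher in Hep-G2, with SNHG16 as the addition, and 2 were lower. The higher count of BE(2)-C was 1, GAS5, without siI1 replicate 1 or siI1 replicate 3, with replicate numbers as a block and without the mean-variance trend in limma. It was 2, as SNHG7 was then not called, without the filter on low values and when any single siC library of BE(2)-C was left out. With equal sums of FPKM, 5 were higher and 2 lower in Hep-G2, as SNHG6 was then not called, and 5 were also higher without the trend or without siC replicate 1, siC replicate 3, siI1 replicate 2 or siI1 replicate 3.

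**Figure D2:**
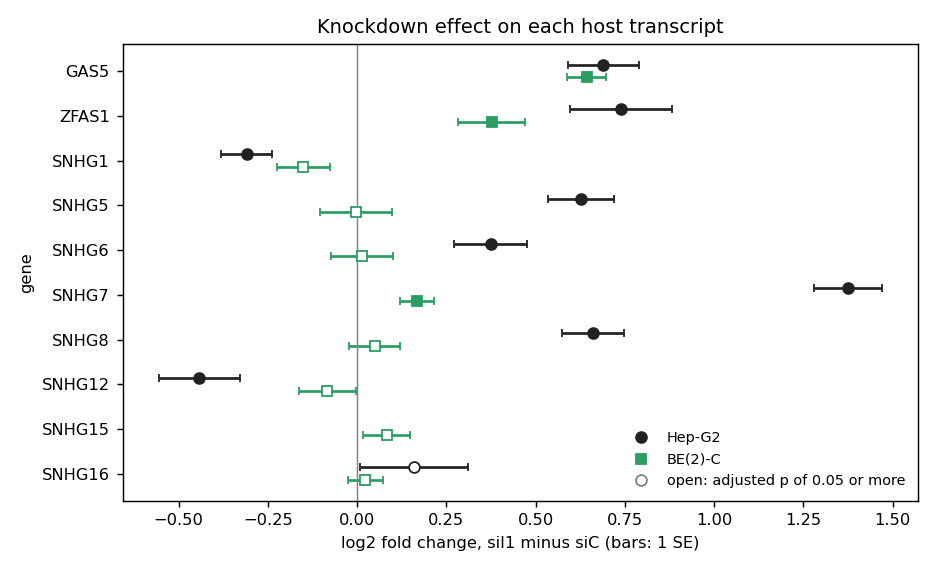
Log2 fold change, siI1 minus siC, on the log2(FPKM + 0.1) scale for each host transcript in Hep-G2 (circles) and BE(2)-C (squares), with bars of 1 SE and open symbols where the adjusted p was 0.05 or more. SNHG7 had the largest value, 1.38 in Hep-G2 against 0.17 in BE(2)-C, while SNHG16 in Hep-G2 turned from 0.16 to -0.01 and SNHG5 in BE(2)-C from -0.003 to 0.02 when libraries were scaled to equal sums.

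Among the hosts of C/D box snoRNAs, GAS5 was higher in both lines. GAS5 (ENSG00000234741), named after its accumulation in growth-arrested cells, also binds the glucocorticoid receptor. It had 20.5, 24.3 and 21.3 FPKM in the siC libraries of Hep-G2 against 31.3, 38.91 and 36.7 in the siI1 libraries (1141 to 2057 reads). Its BE(2)-C level was 67.9, 68.6 and 65.6 FPKM with siC against 112, 99.1 and 105 with siI1 (3195 to 6288 reads). In either line the lowest siI1 library lay above the highest siC library. GAS5 changed by 0.69 ± 0.0999 (log2, SE, adjusted p = 0.00157) in Hep-G2 and by 0.64 ± 0.0539 (SE, adjusted p = 0.000428) in BE(2)-C. The difference between these effects, BE(2)-C minus Hep-G2, was -0.05 (adjusted p = 0.789), and it turned to 0.14 with equal sums and to 0.003 or 0.02 without siC replicate 1 or siI1 replicate 2 of Hep-G2.

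ZFAS1 (ENSG00000177410), transcribed away from the start of the zinc finger gene ZNFX1, carries the SNORD12 family. Its FPKM in Hep-G2 was 17.7, 19.6 and 17.2 with siC against 24.0, 34.9 and 33.3 with siI1 (569 to 1141 reads). The siI1 libraries were all above the siC libraries, with replicate 1 the lowest of them. Values in BE(2)-C were 21.5, 22.0 and 18.0 with siC against 26.9, 24.3 and 28.8 with siI1, which again did not overlap but lay closer together. The log2 fold changes were 0.74 ± 0.143 (SE, adjusted p = 0.00552) and 0.38 ± 0.0943 (SE, adjusted p = 0.0246). The adjusted p in BE(2)-C was 0.0734 without siI1 replicate 1, 0.0819 without siI1 replicate 3, 0.0670 without the mean-variance trend and, using replicate numbers as a block, 0.0629. The effects differed by -0.36 (adjusted p = 0.144), and by -0.53 (adjusted p = 0.00688) without siI1 replicate 1 of Hep-G2.

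SNHG5 (ENSG00000203875), host of SNORD50A and SNORD50B, was called in Hep-G2 and not in BE(2)-C, and the difference between the lines was itself called. In Hep-G2 the siC libraries had 72.3, 76.6 and 71.1 FPKM and the siI1 libraries 98.8, 125 and 118 (2917 to 5072 reads). For BE(2)-C the siC libraries had 141, 167 and 136 FPKM and the siI1 libraries 165, 136 and 142. The groups were apart in Hep-G2 and interleaved in BE(2)-C. The log2 fold change was 0.63 ± 0.0923 (SE, adjusted p = 0.00167) in Hep-G2 and -0.003 ± 0.101 (SE, adjusted p = 0.987) in BE(2)-C, where the sign turned with median centring, equal sums and when single libraries were left out. The difference was -0.63 ± 0.147 (SE, adjusted p = 0.00544).

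SNHG6 (ENSG00000245910), host of SNORD87, showed a smaller change. Its FPKM in Hep-G2 was 36.4, 42.0 and 34.7 with siC against 43.2, 50.4 and 53.1 with siI1 (638 to 915 reads). Values in BE(2)-C were 77.9, 88.1 and 71.2 with siC against 85.8, 75.1 and 78.0 with siI1. In Hep-G2 the lowest siI1 library was just above the highest siC library, whereas the groups of BE(2)-C overlapped. The log2 fold change was 0.37 ± 0.102 (SE, adjusted p = 0.0224) in Hep-G2 and 0.01 ± 0.0870 (SE, adjusted p = 0.929) in BE(2)-C. The call in Hep-G2 was lost with equal sums (0.21, adjusted p = 0.0585), without the mean-variance trend (adjusted p = 0.0570) and without siC replicate 1, siC replicate 3, siI1 replicate 2 or siI1 replicate 3 (adjusted p between 0.0719 and 0.07996). The difference was -0.36 (adjusted p = 0.0667). It was called with median centring (-0.41, adjusted p = 0.0386) and without siC replicate 2 (-0.44, adjusted p = 0.0315) or siI1 replicate 1 (-0.45, adjusted p = 0.0199) of Hep-G2 or siC replicate 3 of BE(2)-C (-0.43, adjusted p = 0.0382).

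SNHG1 (ENSG00000255717) holds C/D box snoRNAs including SNORD25 to SNORD31 and, unlike the former, fell in Hep-G2. It had 14.0, 14.9 and 14.3 FPKM with siC against 10.6, 11.99 and 12.2 with siI1 (537 to 814 reads). Every siI1 library was below every siC library, a log2 fold change of -0.31 ± 0.0719 (SE, adjusted p = 0.0121). For BE(2)-C the siC libraries had 16.3, 18.4 and 17.0 FPKM and the siI1 libraries 16.7, 14.3 and 15.6, so that siI1 replicate 1 lay within the siC range. The value was -0.15 ± 0.0744 (SE, adjusted p = 0.180) there. The effects differed by 0.16 (adjusted p = 0.268), by 0.09 (adjusted p = 0.469) without siI1 replicate 1 of Hep-G2, and by 0.34 (adjusted p = 0.00881) with equal sums.

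SNHG16 (ENSG00000163597), host of SNORD1A, SNORD1B and SNORD1C, was not called in either line. In Hep-G2 its FPKM was 27.8, 32.2 and 29.8 with siC against 26.1, 36.3 and 39.2 with siI1 (1891 to 2833 reads). The siI1 replicate 1 library lay below all siC libraries and the other siI1 libraries above them. The log2 fold change of 0.16 ± 0.151 (SE, adjusted p = 0.436) became 0.34 (adjusted p = 0.0116) without that library and -0.01 with equal sums. For BE(2)-C the siC libraries had 40.0, 37.9 and 37.9 FPKM and the siI1 libraries 41.2, 38.7 and 37.7, a log2 fold change of 0.02 ± 0.0496 (SE, adjusted p = 0.769). The effects differed by -0.14 (adjusted p = 0.569), by -0.31 (adjusted p = 0.0161) without siI1 replicate 1 of Hep-G2, and by 0.05 with equal sums.

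Among the hosts of H/ACA box snoRNAs, SNHG7 showed the largest change of all 10. SNHG7 (ENSG00000233016) holds SNORA17A and SNORA17B. In Hep-G2 it had 10.1, 10.4 and 8.96 FPKM with siC against 22.6, 26.2 and 28.0 with siI1 (574 to 1658 reads). Its BE(2)-C level was 56.0, 55.5 and 54.6 FPKM with siC against 63.7, 58.6 and 64.5 with siI1 (3089 to 4278 reads). Groups were apart in both lines, widely in Hep-G2 and narrowly in BE(2)-C. The log2 fold change was 1.38 ± 0.0960 (SE, adjusted p = 6.55e-05) in Hep-G2 and 0.17 ± 0.0482 (SE, adjusted p = 0.0395) in BE(2)-C. The call in BE(2)-C was lost without the filter on low values (adjusted p = 0.0598), without the mean-variance trend (adjusted p = 0.130), with the replicate number as a block (adjusted p = 0.0563) and without each library but siI1 replicate 2 (adjusted p between 0.0608 and 0.138). The difference was -1.21 ± 0.112 (SE, adjusted p = 1.1e-05).

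SNHG8 (ENSG00000269893), host of SNORA24, had 47.4, 49.3 and 44.4 FPKM in the siC libraries of Hep-G2 against 65.9, 80.1 and 77.8 in the siI1 libraries (604 to 1077 reads). Its BE(2)-C level was 103, 108 and 95.8 FPKM with siC against 115, 100.1 and 102 with siI1. As for SNHG5, the groups were apart in Hep-G2 and overlapped in BE(2)-C. The log2 fold change was 0.66 ± 0.0862 (SE, adjusted p = 0.000969) in Hep-G2 and 0.05 ± 0.0709 (SE, adjusted p = 0.652) in BE(2)-C, where it was -0.01 without siI1 replicate 1. The difference was -0.61 ± 0.118 (SE, adjusted p = 0.00177).

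SNHG15 (ENSG00000232956), host of SNORA9, differed by level. In Hep-G2 it had 0, 0.0805 and 0.0372 FPKM with siC against 0.0203, 0 and 0.0615 with siI1, which is at most 4 reads per library, and it did not pass the filter on low values. Its BE(2)-C level was 16.2, 16.2 and 15.7 FPKM with siC against 18.7, 15.9 and 16.6 with siI1 (759 to 1053 reads). A change in Hep-G2 was not detectable at this depth, and the BE(2)-C groups overlapped, with a log2 fold change of 0.08 ± 0.0666 (SE, adjusted p = 0.408).

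SNHG12 (ENSG00000197989) carries snoRNAs of both classes and was the least abundant host transcript of BE(2)-C. In Hep-G2 it had 3.59, 3.24 and 3.51 FPKM with siC against 2.45, 2.85 and 2.26 with siI1 (only 102 to 188 reads). Values in BE(2)-C were 3.47, 3.53 and 3.26 FPKM with siC against 3.12, 3.39 and 3.16 with siI1 (148 to 168 reads). The siI1 libraries of Hep-G2 were all below the siC libraries, and those of BE(2)-C overlapped them. The log2 fold change was -0.44 ± 0.114 (SE, adjusted p = 0.0183) in Hep-G2 and -0.08 ± 0.0795 (SE, adjusted p = 0.488) in BE(2)-C. The Hep-G2 call was lost without siC replicate 1, siC replicate 3 or siI1 replicate 3 (adjusted p between 0.0577 and 0.0672). The difference was 0.36 (adjusted p = 0.0516). It was called with a pseudocount of 1 (0.27, adjusted p = 0.0468), with equal sums (0.54, adjusted p = 0.0121) and without siC replicate 2 (0.40, adjusted p = 0.0486) or siI1 replicate 2 (0.45, adjusted p = 0.0178) of Hep-G2.

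Of the 9 host transcripts tested in both lines, the knockdown effect differed for 3, SNHG5, SNHG7 and SNHG8, each with the lower value in BE(2)-C, where 40.2% of 15362 genes tested in both lines differed. With equal sums the count was 5, with SNHG1 and SNHG12 as additions, and the median difference of all genes moved from 0.04 to 0.21, with 2039 genes lower and 4532 higher in BE(2)-C in place of 2843 and 3337. With median centring the count was 4, with SNHG6 as the addition. The median difference of all genes was then -0.01, with 3228 genes lower and 2964 higher in BE(2)-C. Without siI1 replicate 1 of Hep-G2 the count was 6, with ZFAS1, SNHG6 and SNHG16 as additions, and without siC replicate 2 of Hep-G2 it was 5.

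Summed over the 10 host genes, the siC libraries of Hep-G2 held 249.7, 273 and 245 FPKM and the siI1 libraries 325, 406 and 401. The sums in BE(2)-C were 544, 586 and 515 with siC against 649, 566 and 594 with siI1. The sums were apart in Hep-G2, with siI1 replicate 1 the lowest of the siI1 libraries, and overlapped in BE(2)-C. Ribosomal protein genes that host snoRNAs, most of whose mRNAs are TOP mRNAs, gave sums over 26 genes of 6448 to 7186 FPKM with siC and 8339.6 to 10411 with siI1 in Hep-G2, and of 16084 to 17226 with siC and 18295 to 19718 with siI1 in BE(2)-C. These sums were apart in both lines.

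**Figure D3:**
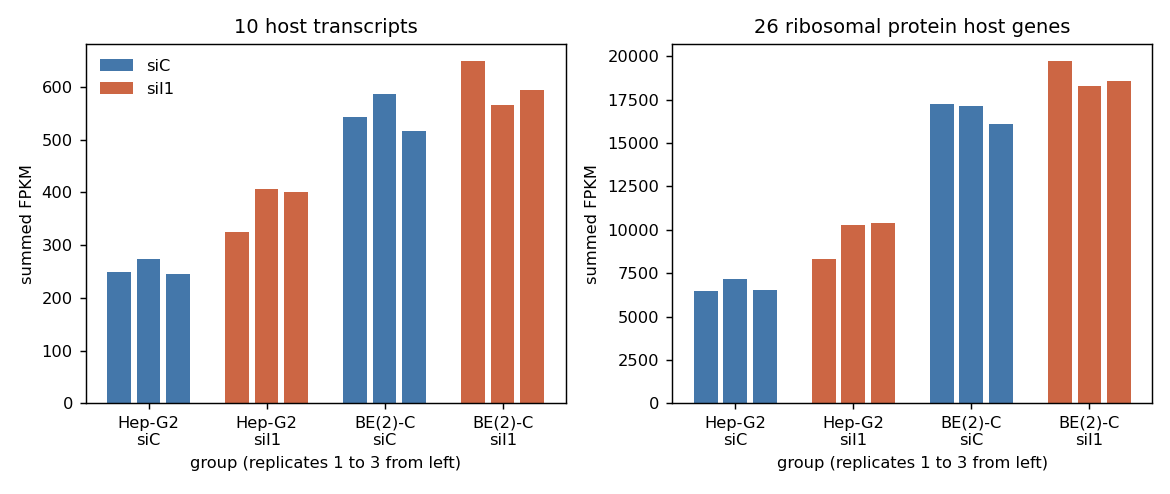
Summed FPKM of the 10 host transcripts (left) and of 26 ribosomal protein genes that host snoRNAs (right), with a bar per library and replicates 1 to 3 from left within each group. The host transcripts had 325 to 406 FPKM in the siI1 libraries of Hep-G2 against 245 to 273 in the siC libraries, and overlapped between the groups of BE(2)-C.

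Ribosomal protein hosts were often higher and never called lower. In Hep-G2, 23 of 26 were higher (21.9% of all tested genes were) and none lower, at a median log2 fold change of 0.56, and with equal sums the counts were also 23 and 0. In BE(2)-C, 12 of 26 were higher (13.3% of all tested genes were), 14 were not called and none was lower, with a median of 0.18, and 16 were higher with equal sums. No gene of the list was lower at an unadjusted limma p below 0.05 or with voom in either line. Without single libraries, the higher count ranged from 18 to 25 in Hep-G2 and from 10 to 14 in BE(2)-C. The count of 25 was that without siI1 replicate 1 of Hep-G2. The genes with the smallest p among those higher were RPS2 (0.81), RPL7A (0.73) and RPL3 (0.73) in Hep-G2 and RPL3 (0.54), RPL17 (0.46) and RPL23 (0.48) in BE(2)-C. RPL17 had the lowest level of the list, with means of only 8.05 FPKM with siC and 11.1 with siI1 in BE(2)-C. RPS2 differed between the lines by -0.72 (adjusted p = 0.00142). Ribosomal protein genes have many processed pseudogenes, so their read counts are uncertain. Neither this list nor those below were tested as sets.

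Other noncoding host genes moved either way. Of 20 listed, 18 were in the tables, 17 were tested in Hep-G2 and 16 in BE(2)-C. In Hep-G2, 5 fell, SNHG3 (-0.44), SNHG4 (-0.81), SNHG14 (-0.47), SNHG20 (-0.57) and DANCR (-0.41). Another 6 rose there, SNHG11 (0.89), SNHG17 (0.46), SNHG19 (1.11), SNHG29 (0.50), SNHG32 (1.24) and EPB41L4A-AS1 (0.77), where 23% of all tested genes were lower and 21.9% higher. In BE(2)-C, 2 fell, SNHG19 (-0.73) and SNHG21 (-0.74), and 4 rose, SNHG14 (0.41), SNHG29 (0.35), SNHG32 (0.71) and EPB41L4A-AS1 (0.58), where 14.8% of all were lower and 13.3% higher. The medians of the list were 0.13 and 0.08. The lower count in Hep-G2 was 6 with equal sums. It was 4 without the filter on low values, with median centring and without any single Hep-G2 library but siI1 replicate 1. The lower count in BE(2)-C was 4 with voom or with a filter of 1 FPKM, 3 with replicate numbers as a block or without siI1 replicate 2, and 1 without the filter on low values, siC replicate 2, siI1 replicate 1 or siI1 replicate 3, and the higher count was 2 without siI1 replicate 1 or siI1 replicate 3. SNHG9, SNHG10, SNHG25 and SNHG26 were tested in both lines and called in neither, SNHG22 was tested in Hep-G2 only and not called, and SNHG18 had too few reads to be tested.

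SNHG19 and SNHG14 had opposite calls in the lines. SNHG19 went from a mean of 61.8 to 134 FPKM in Hep-G2 and from 72.5 to 44.01 in BE(2)-C, and its effects differed by -1.84 (adjusted p = 5.22e-05). SNHG14, a long transcript with clustered C/D box snoRNAs from the imprinted Prader-Willi region, went from 2.32 to 1.66 FPKM in Hep-G2 and from 2.08 to 2.77 in BE(2)-C, a difference of 0.88 (adjusted p = 0.00274). Its limma adjusted p was 0.0428 in Hep-G2, the largest among the genes of the list called lower there, and 0.0264 in BE(2)-C. SNHG32 and SNHG29 were higher in both, SNHG32 from 12.5 to 29.8 FPKM in Hep-G2 and from 21.8 to 35.7 in BE(2)-C, SNHG29 from 78.5 to 111 and from 178 to 227.

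Protein-coding hosts without a ribosomal protein product had calls in both directions. Of 25 tested in Hep-G2, 12 were lower (23% of all tested genes were), 5 higher (21.9% of all) and 8 not called, with a median of -0.21. Those lower with the smallest p were the chaperonin subunit CCT6A (-0.56), the pseudouridine synthase DKC1 (-0.62) and the snoRNP protein NOP58 (-0.62). Those higher with the smallest p were the translation factor EEF2 (0.62), TPT1 (0.35) and RACK1 (0.37), the product of which binds the small ribosomal subunit. In BE(2)-C, 2 of 25 were lower, the ATP synthase subunit ATP5F1B (-0.31) and NOP56 (-0.20), and 7 were higher, among them TPT1 (0.37), the poly(A)-binding protein gene PABPC4 (0.26) and EEF2 (0.43), with a median of 0.07, where 14.8% of all tested genes were lower and 13.3% higher. CCT6A, DKC1 and NOP58 differed between the lines by 0.57, 0.70 and 0.64 (adjusted p = 7.62e-05, 1.26e-05 and 0.000155).

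**Figure D4:**
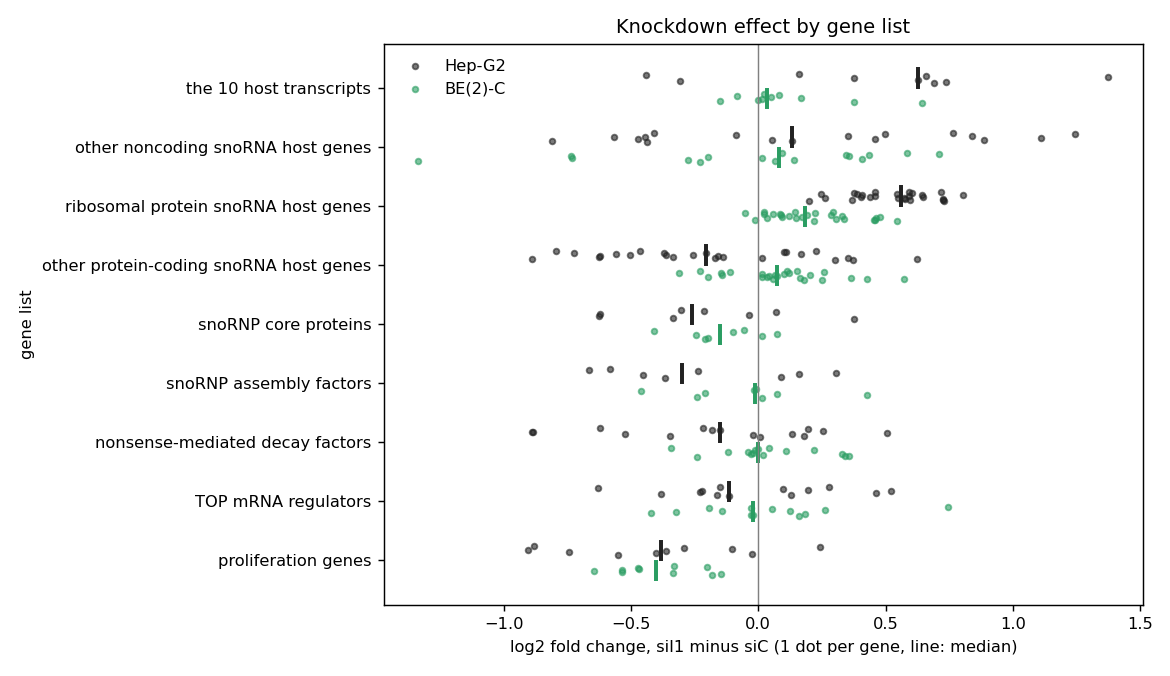
Log2 fold change, siI1 minus siC, of each tested gene of 9 lists in Hep-G2 (black) and BE(2)-C (green), with the median as a vertical line. The ribosomal protein hosts had medians of 0.56 and 0.18 and the 10 host transcripts of 0.63 and 0.04, beside medians of 0.01 and 0.02 for all tested genes; with equal sums of FPKM the all-gene median of Hep-G2 was -0.15 and 23 ribosomal protein hosts were higher.

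Some mRNAs of the proteins that bind snoRNAs were called. Of 8 snoRNP core genes, 4 were lower in Hep-G2, NOP56 (-0.34) and NOP58 (-0.62) of the C/D particle and DKC1 (-0.62) and GAR1 (-0.30) of the H/ACA particle, while FBL, the methyltransferase, was higher (0.38), beside 23% lower and 21.9% higher among all tested genes. In BE(2)-C, 3 were lower, NOP56 (-0.20), SNU13 (-0.24) and NOP10 (-0.41), and none was higher, nor at an unadjusted limma p below 0.05, beside 14.8% and 13.3% of all. The medians were -0.26 and -0.15. NOP56, NOP58 and DKC1 are host genes themselves and stand in both lists. Of 8 assembly factors, NUFIP1 (-0.37), ZNHIT6 (-0.45), NAF1 (-0.67) and SHQ1 (-0.58) were lower and RUVBL2 (0.31) higher in Hep-G2, and RUVBL2 (-0.21) and PIH1D1 (-0.46) were lower in BE(2)-C, with medians of -0.30 and -0.01. Here too, 23% of all genes were lower and 21.9% higher in the former line, against 14.8% and 13.3% in the latter.

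Genes of the pathways that act on host transcripts gave no uniform direction. Among 15 nonsense-mediated decay factors, those lower in Hep-G2 included SMG1 (-0.52), SMG8 (-0.89), RBM8A (-0.18), CASC3 (-0.22) and XRN1 (-0.62), and the endonuclease gene SMG6 (0.50) was higher, beside 23% and 21.9% of all tested genes. For BE(2)-C, the helicase gene UPF1 (-0.24) and CASC3 (-0.34) were lower, and UPF2 (0.34), UPF3A (0.36) and RBM8A (0.22) higher, beside 14.8% and 13.3%. The medians were -0.15 and -0.003. Of 8 stress mRNAs known as substrates of this decay, ATF3 (0.75), DDIT3 (0.51) and GADD45B (1.42) were higher (21.9% of all genes) and UPP1 (-1.40) lower (23%) in Hep-G2. In BE(2)-C, 6 were lower (14.8% of all genes), ATF4 (-0.26), ATF3 (-0.99), DDIT3 (-0.54), GADD45A (-0.49), UPP1 (-0.52) and CDKN1A (-2.64), and none was higher, nor at an unadjusted limma p below 0.05. The medians of this list were 0.08 and -0.51.

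Of 13 regulators of TOP mRNAs, RPTOR (-0.16), RPS6KB1 (-0.38), EIF4E (-0.22) and CNBP (-0.63) were lower and RPS6KB2 (0.46) and EIF4EBP2 (0.52) higher in Hep-G2, which is 4 and 2 of 13 beside 23% and 21.9% of all tested genes. For BE(2)-C, RPS6KB2 (-0.42), EIF4EBP1 (-0.32) and CNBP (-0.19) were lower, and LARP1 (0.16), whose product binds the TOP sequence, and DEPTOR (0.75) were higher, which is 3 and 2 of 13 beside 14.8% and 13.3%. The medians were -0.11 and -0.02. Most of 10 proliferation genes were lower in each line. Of them, MKI67 (-0.55), CCNB1 (-0.40), CDK1 (-0.74), PLK1 (-0.36), AURKA (-0.91), MCM5 (-0.29) and CCNE1 (-0.88) were lower and PCNA (0.24) higher in Hep-G2, and TOP2A and MCM2 were not called, where 23% of all tested genes were lower. The BE(2)-C libraries had 9 of 10 lower, from -0.18 for MKI67 to -0.65 for PLK1, with TOP2A (-0.15, adjusted p = 0.0972) as the exception, where 14.8% of all tested genes were lower. The medians were -0.38 and -0.40. The part of these changes in the results on the host transcripts was not tested.

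Some host genes share their start or their locus with other genes. The annotation gives a divergent partner within 1000 bases of the start for 4 of them. ZNFX1, which starts 248 bases from ZFAS1 on the other strand and shares 249 bases with it, fell in Hep-G2 (-0.87, adjusted p = 0.000344) where ZFAS1 rose. Its value in BE(2)-C was 0.13 (adjusted p = 0.307). SLC3A2, a subunit of amino acid transporters that starts 51 bases from SNHG1, fell in both lines (-0.32, adjusted p = 0.0151, and -0.75, adjusted p = 0.000276), as SNHG1 did in Hep-G2. ZBTB37, which starts 800 bases from GAS5 and shares 801 with it, had -0.37 (adjusted p = 0.279) in Hep-G2 and rose in BE(2)-C (0.57, adjusted p = 0.0339), while GAS5 rose in both. The unnamed gene ENSG00000267546, 44 bases from SNHG16, had only 5 to 26 reads in Hep-G2, where it rose (1.30, adjusted p = 0.0101), and 4 to 13 in BE(2)-C (0.67, adjusted p = 0.123).

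Other genes also overlap a host gene on the opposite strand. The libraries were strand-specific, but the strand setting used for counting was not given in the sources used here, so reads from shared stretches cannot be told apart, which holds for ZNFX1 and ZBTB37 as well. PRSS12, which extends over 5279 bases of the SNHG8 locus, had at most 1 read per library in Hep-G2 and fell from a mean of 53.6 to 22.6 FPKM in BE(2)-C (-1.24, adjusted p = 2.72e-05). DIPK1B, sharing 3377 bases with SNHG7, had 2 to 11 reads in Hep-G2, where it was higher (adjusted p = 0.0160), and fell from 34.9 to 25.1 FPKM in BE(2)-C (-0.47, adjusted p = 0.00772). TRNAU1AP at SNHG12 had 0.03 (adjusted p = 0.841) in Hep-G2 and fell in BE(2)-C (-0.47, adjusted p = 0.0127).

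The mean profile of the host transcripts was compared with that of the 8858 genes that reached 1 FPKM in each of the libraries, on log2 values centred on the mean of each table. SNHG15 was part of this mean although it had at most 4 reads per library in Hep-G2, below the level asked of the compared genes. Its values there add noise to the profile, and a profile without it was not examined. Centred host levels ranged from -0.25 in siC replicate 1 to 0.30 in siI1 replicate 3 of Hep-G2, with 0.01 in siI1 replicate 1. In BE(2)-C they ranged from -0.13 in siC replicate 3 to 0.14 in siI1 replicate 1. The 5 most alike genes over the 12 libraries were RPS25 (Pearson r 0.995), ETFB (0.993), RPL23A (0.989), RPL37A (0.987) and PRDX5 (0.986). RPS25, RPL23A and RPL37A encode ribosomal proteins, ETFB a subunit of the mitochondrial electron transfer flavoprotein and PRDX5 a peroxiredoxin. The 12 points share the knockdown, the line and the depth of their libraries, and r is given as a description.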

How the data were processed

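Poly-A RNA of the 12 libraries was analysed from the tables that the authors deposited, separately for each cell line. The authors clipped reads with Cutadapt 1.14, aligned them to hg38 with HISAT2 2.1.0, used SAMtools 1.5, counted reads per gene with featureCounts 1.5.3 on Ensembl release 89 and tested each line with edgeR 3.30.3 and TMM scaling. The deposited library columns hold FPKM values per the authors' scaling, a unit taken from the values because the header names none: multiplied by length, 100% of the nonzero values were whole multiples of a step that is constant within a library (tolerance 0.001), and dividing by that step recovered reads. The tables also hold the authors' own comparison (log2 fold change, p and FDR), none of which was used.

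Genes with at least 0.1 FPKM in at least 3 of 6 libraries of a line were tested on the log2(FPKM + 0.1) scale, which understates changes of low genes, with limma 3.58.1 in R 4.3.3 (mean-variance trend, moderated errors, two-sided, Benjamini-Hochberg adjustment over every tested gene, any RNA type, threshold 0.05). The difference between the lines was an interaction term over all 12 libraries, for genes tested in both tables. Exact permutation of 3 against 3 libraries gives no two-sided p below 0.1, so calls rest on limma. Alternatives were pseudocounts of 0.01 and 1, no filter or 1 FPKM in 3 libraries, median centring, equal sums of FPKM, voom on the recovered reads, no trend, the replicate number as a block, and leaving out each library. The difference between the lines was not refitted with a pseudocount of 0.01, other filters, voom or no trend. The code was tested on simulated data. Replicate numbers were not treated as pairs.

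Members and gene lists were chosen with earlier results of these data known. By rule, the text names the 10 members, IGF2BP1 and its paralogs, tested genes of the other noncoding host list, called genes of lists of at most 16 genes, up to 3 called genes with the smallest p per line and direction of longer lists, genes that overlap a member or start within 1000 bases of its start on the other strand, snoRNAs inside members and the 5 genes of most similar profile. Some genes that meet this rule are not reported here, but counts and medians of lists include them. Start sequences are from RefSeq (GRCh38.p14), and gene positions from GENCODE 44. Python 3.11.15, NumPy 2.4.6, pandas 2.3.3, the R package data.table (version 1.17.8) and Matplotlib 3.10.9 were used.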

Additional observations from a re-analysis of the deposited data

Results flagged for a closer look

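The results below stand here because the knockdown effect of a gene named in the report differed between the lines by the interaction test in limma, at an adjusted p of at most 0.0448 for all 52. Each value is the log2 fold change in BE(2)-C minus that in Hep-G2, and 40.2% of all genes tested in both lines differed in this way.

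Among the 10 host transcripts, SNHG5 (-0.63), SNHG7 (-1.21) and SNHG8 (-0.61) differed. Of the other noncoding hosts, the values were 0.87 for SNHG4, -0.75 for SNHG11, 0.88 for SNHG14, -0.44 for SNHG17, -1.84 for SNHG19, -0.53 for SNHG32 and 0.50 for DANCR. Of the protein-coding hosts, RPS2 (-0.72), RPL23A (-0.31), CCT6A (0.57), DKC1 (0.70) and NOP58 (0.64) differed, and of the paralogs IGF2BP3 (0.45). Further protein-coding hosts that the report does not name differed as well. Among them were ribosomal protein hosts, each with the lower value in BE(2)-C, and other protein-coding hosts with differences in either direction.

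Genes of snoRNP proteins and their assembly in this group were FBL (-0.58), NUFIP1 (0.38), ZNHIT6 (0.88), RUVBL2 (-0.52), NAF1 (0.65) and SHQ1 (0.57). Nonsense-mediated decay factors were UPF1 (-0.25), UPF2 (0.69), SMG1 (0.85), SMG6 (-0.52), SMG8 (0.77), RBM8A (0.40) and XRN1 (0.66), and stress mRNAs sensitive to this decay were ATF3 (-1.75), DDIT3 (-1.05), GADD45A (-0.43), GADD45B (-1.65), UPP1 (0.88) and CDKN1A (-2.81).

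Regulators of TOP mRNAs were LARP1 (0.27), RPS6KB1 (0.57), RPS6KB2 (-0.88), EIF4EBP2 (-0.66), EIF4E (0.35) and CNBP (0.44). Proliferation genes were MKI67 (0.37), PLK1 (-0.28), AURKA (0.37), MCM2 (-0.37), PCNA (-0.44) and CCNE1 (0.55). Of the genes that overlap a host gene or start next to it, ZBTB37 (0.94), ZNFX1 (1.01), SLC3A2 (-0.43), DIPK1B (-1.61) and TRNAU1AP (-0.50) differed.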

How the results depend on the processing

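The calls of GAS5, ZFAS1, SNHG1, SNHG5, SNHG7 and SNHG8 in Hep-G2, of GAS5 in BE(2)-C, and of the differences of SNHG5, SNHG7 and SNHG8 held under every alternative run. For the differences these were a pseudocount of 1, median centring, equal sums, the block and leaving out each library. Where a value moved below, the cause was not tested. Over all values of single host transcripts, 15 changed sign, 21 lost and 12 gained a call, and 381 kept direction and side of the threshold.

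When libraries were left out in turn, the host transcripts lower in Hep-G2 numbered 1 to 2, those higher 5 to 7, those higher in BE(2)-C 1 to 3, and those that differed between the lines 3 to 6. The higher count in BE(2)-C was 1 without the mean-variance trend, and the count of differences was 5 with equal sums. Other noncoding hosts lower in BE(2)-C numbered 1 without the filter and 4 with a filter of 1 FPKM or with voom, in place of 2.

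Sign changes were confined to uncalled values. SNHG16 in Hep-G2 was -0.0079 with equal sums. SNHG5 in BE(2)-C was 0.037 with median centring, 0.017 with equal sums and 7.2e-05 with voom, and between -0.085 and 0.088 when libraries were left out. In the same runs SNHG6 in BE(2)-C lay between -0.059 and 0.094, SNHG8 between -0.0138 and 0.0893, SNHG16 between -0.0138 and 0.0514, and the difference of GAS5 between -0.14 and 0.019. With equal sums the difference was 0.14 for GAS5 and 0.051 for SNHG16.

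Using replicate numbers as a block, the host transcripts higher in BE(2)-C numbered 1 (GAS5), while Hep-G2 had 2 lower and 6 higher, and 3 differed between the lines, as without it. The calls of ZFAS1 (adjusted p = 0.0629) and SNHG7 (adjusted p = 0.0563) were lost in BE(2)-C. No other call of a host transcript changed. Deviations of same-numbered libraries correlated by 0.063, 0.035 and -0.0062 (Hep-G2, replicates 1, 2 and 3) and by 0.023, -0.010 and -0.0028 (BE(2)-C). These values cannot show whether same-numbered libraries were prepared as pairs, and the labels do not say. The main fit did not treat them as pairs.

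Depth limits SNHG12, with 102 to 188 reads per library, and SNHG15 in Hep-G2, with at most 4, which was tested only without the filter (log2 fold change -0.12, adjusted p = 0.799).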

Other observations

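SNHG15 had at most 4 reads per library in Hep-G2 but 759 to 1053 in BE(2)-C, and its surroundings on the chromosome were looked at after these values were seen. Of the protein-coding genes within 100 kb, PURB had a mean of 5.93 FPKM in the siC libraries of Hep-G2 and 7.93 in those of BE(2)-C, and CCM2 4.29 and 5.80. NACAD, like SNHG15, was near 0 in one line (0.0594 in Hep-G2) but not in the other (8.06 in BE(2)-C), whereas MYO1G had 0.299 in Hep-G2 and was listed at 0 in the siC libraries of BE(2)-C. The tables were normalized separately, and these levels were not tested against each other.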
